A study of Mus musculus with 2 samples.

Results

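The genes described here were selected on array signal: in ZHBTc4 mouse embryonic stem (ES) cells, the clone with an Nr5a2-EGFP transgene exceeded both a clone with EGFP and a clone with Oct4-EGFP by 3-fold or more. They were chosen by probe, and a probe was taken when its log2 ratio of processed Cy5 over Cy3 signal reached 1.585 (3-fold) on both arrays and its Cy5 signal lay well above background on both, by the flag of the scanning software. Of 39429 probes, 225 met this rule, and they stand for 219 of 31829 gene names. Of the 30284 probes with Cy5 signal well above background on both arrays, which are called detected probes here, 613 (2.02%) reached 3-fold over the EGFP clone and 876 (2.89%) over the Oct4-EGFP clone. The 225 that reached it over both are 0.743% of the detected probes, and their 219 genes are 0.882% of the 24832 genes with a detected probe. As a measure of the opposite direction, 332 of 30081 probes detected in Cy3 on both arrays (1.1%) were lower than in both other clones by 3-fold or more. Since the ratios chose the genes, they are given below as a description.

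ZHBTc4 is an ES cell line in which both endogenous Oct4 alleles are disrupted and a transgene under doxycycline repression supplies Oct4. The 3 lines compared were each a single clone with a stably integrated vector, treated with doxycycline: #2-5 with EGFP, #9 with Oct4-EGFP and #26 with Nr5a2-EGFP. They grew without feeder cells in 15% serum with 1000 IU/ml leukemia inhibitory factor (LIF). The EGFP array held the EGFP clone in Cy3 and the Nr5a2-EGFP clone in Cy5, and the Oct4 array held the Oct4-EGFP clone in Cy3 and again the Nr5a2-EGFP clone in Cy5. Each pair of clones was hybridised once, without a replicate or a swap of dyes, so differences between cultures could not be estimated or tested. A transgene, the clone that carries it and a preference of a probe for Cy5 cannot be told apart in these ratios. Both ratios also share the Nr5a2-EGFP sample, and in each of the 4 channels between 78.0% and 80.0% of the probes lay well above background.

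Nr5a2 is an orphan nuclear receptor that binds DNA as a monomer at an extended half-site. It is best known for control of bile acid, cholesterol and steroid genes in liver, intestine and ovary, and in ES cells it is one of the activators of the Oct4 gene. When Oct4 is switched off, ES cells turn towards trophoblast, the outer layer of the early embryo that forms the placenta. The array's own probes for the transgenes read low: both Nr5a2 probes had log2 ratios below 0 in the Nr5a2-EGFP clone (-0.91 and -0.59 over EGFP, -1.12 and -0.67 over Oct4-EGFP). The Pou5f1 probe, for the gene that encodes Oct4, read -0.18 and -2.01. Its signals were 118 with EGFP and 116 with Oct4-EGFP, and 104 and 28.8 with Nr5a2-EGFP on the EGFP and Oct4 arrays. The ratios thus differed through the Cy5 readings of the same clone. On the Oct4 array the Cy5 signal was not well above background, so no fold over Oct4-EGFP was measured. The sources used here do not say whether the constructs hold the sequences of these probes, so they do not check the labels, and every direction below is drawn for the clone labelled Nr5a2-EGFP.

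The highest ratios were not gathered in 1 pathway. The 12 genes with an official symbol and the highest smaller ratio encode a phosphatase regulator (Ppp1r21), liver-type plasma proteins (Serpina1d, Mug1), a ubiquitin ligase adaptor (Asb18), membrane proteins of blood cells (Evi2, Adgre1), an orphan receptor locus (Gpr146), a calcium sensor (Cabp7), a secreted protease (Klk1), a potassium channel subunit (Kcng4), soluble adenylyl cyclase (Adcy10) and a second phosphatase subunit (Ppp2r3a). Only Ppp1r21, Cabp7 and Kcng4 of these were well above background in all 4 channels. For the other 9 both control clones were too dim for a measured fold.

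Ppp1r21 encodes a regulatory subunit of protein phosphatase that acts in endosomal sorting. Its probe at chromosome 17, 88983200 to 88983259 (mm9, the build of all probe positions here), had a signal of 432 with EGFP and 253 with Oct4-EGFP. The Nr5a2-EGFP clone gave 9217 and 7939 on the EGFP and Oct4 arrays. The log2 ratios were 4.41 over EGFP and 4.97 over Oct4-EGFP, the highest smaller ratio of any gene with an official symbol. A second probe of the gene, at 88987367 to 88987426, gave 1281 and 1037 in the control clones and 1147 and 1016 in the Nr5a2-EGFP clone. Its log2 ratios were -0.16 and -0.03, so the difference was seen with 1 of the gene's 2 probes.

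Cabp7, a calcium-binding sensor protein of the Golgi and of neurons, was read by 1 probe at chromosome 11, 4639176 to 4639235. Its signal was 103 with EGFP and 143 with Oct4-EGFP against 1978 and 1728 with Nr5a2-EGFP (log2 ratios 4.26 and 3.60). The other CaBP sensors did not share this: Cabp1, Cabp2, Cabp4 and Cabp5 gave 6 probes, none of which reached 2-fold over either control clone. Kcng4, a modifying subunit of voltage-gated potassium channels (chromosome 8, 122148827 to 122148886), had signals of 71.0 and 79.0 in the control clones and 1013 and 869 with Nr5a2-EGFP, which gave log2 ratios of 3.83 and 3.46. The related Kcng1 was lower in the Nr5a2-EGFP clone by its brighter probe (-2.16 and -0.69). Both genes were thus near the dim end of the scale in the control clones. With Nr5a2-EGFP, Cabp7 lay above the median Cy5 signal of all detected probes (1159 and 1041) and Kcng4 below it.

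3 brighter genes belong to lists of signalling proteins. Ltb, lymphotoxin beta, a membrane ligand of the tumour necrosis factor family that organises lymphoid tissue (chromosome 17, 35333097 to 35333156), gave 882 with EGFP, 1225 with Oct4-EGFP, and 11876 and 9943 with Nr5a2-EGFP. Its log2 ratios were 3.75 and 3.02. The neighbouring ligand gene Lta, 7178 bases away, read -0.56 and -0.30, and Tnf was not well above background in any channel. Ltb was the only member among the 10 detected ligands of that family, against 0.882% of all detected genes. The lists were written with earlier results of these data known, and counts in lists this short say little.

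Dkk1 encodes a secreted inhibitor of Wnt signalling that binds the Wnt co-receptor Lrp6. The signal of its probe (chromosome 19, 30621424 to 30621483) was 3783 with EGFP, 735 with Oct4-EGFP, and 25680 and 18799 with Nr5a2-EGFP. The log2 ratios were 2.76 and 4.68. The control clones differed from each other for this gene: after centring, the Oct4-EGFP level was lower than the EGFP level by a log2 difference of -2.20. Among 13 detected Wnt antagonists Dkk1 was the only member, against 0.882% of all detected genes. Dkk3 read -1.39 and -0.80, Dkk4 0.40 and 0.27, and Sfrp2, another secreted Wnt inhibitor, -2.19 and -2.52.

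Gna12, the alpha subunit of a heterotrimeric G protein (chromosome 5, 141235999 to 141236058), had signals of 798 with EGFP and 1415 with Oct4-EGFP, and of 10016 and 8320 with Nr5a2-EGFP. Its log2 ratios were 3.65 and 2.56. Its closest relative Gna13 was measured by 3 probes, the brightest of which read 0.63 and -0.31. Of 14 detected alpha subunits Gna12 alone was a member, against 0.882% of all detected genes. Tex13a, an X-linked testis gene (134742723 to 134742782), was dimmer, with 57.3 and 53.8 in the control clones and 323 and 299 with Nr5a2-EGFP, a log2 ratio of 2.49 and 2.48. Under normexp and loess these were 1.34 and 1.48, below 3-fold. Its relative Tex13b was high in the Nr5a2-EGFP clone over EGFP (3.70) but was also high in the Oct4-EGFP clone (-0.61 over that clone).

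**Figure D1:**
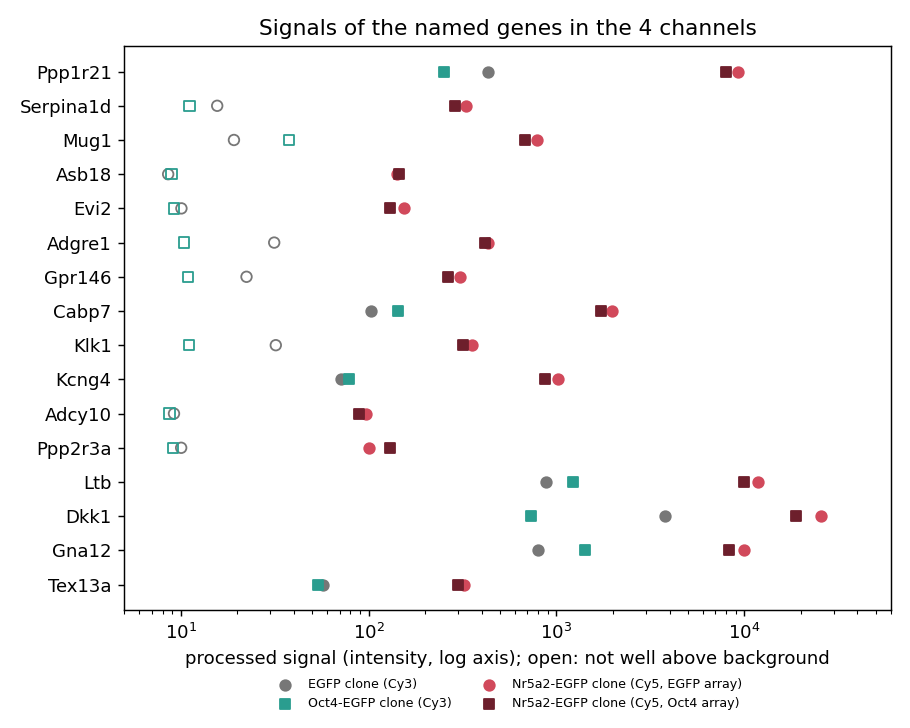
Processed signal (intensity, log axis) of the 16 genes given in full, each with its EGFP and Oct4-EGFP Cy3 signal and both Nr5a2-EGFP Cy5 signals; open symbols were not well above background. Ltb, Dkk1, Gna12 and Ppp1r21 were bright in the Nr5a2-EGFP clone, and 9 genes, among them Mug1 and Klk1, had both Cy3 points open.

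For the genes dim in both control clones a fold can only be bounded. The bound sets the Nr5a2-EGFP level against the higher of 2 Cy3 levels, after loess and scaling between channels. These are the probe's own level and the lowest level of any probe well above background. Where the probe's own level was the higher, as for Mug1, the bound is simply its ratio after loess. The bound is open to dye bias. Mug1, a plasma protease inhibitor related to alpha-2-macroglobulin (chromosome 6, 121838943 to 121839002), read 19.2 and 37.7 in the control clones and 786 and 680 in the Nr5a2-EGFP clone, which was at least 7.48-fold and at least 6.31-fold. Its relatives Mug2 (0.81 and 0.92) and A2m (0.10 and 0.12) were below 2-fold. Adgre1, the macrophage surface receptor known as F4/80 (chromosome 17, 57620350 to 57620409), read 31.4 and 10.4 against 433 and 417, at least 4.10-fold and 4.96-fold. None of the other 6 detected blood-cell markers was a member, which says little for so few beside 0.882% of all detected genes. Ptprc, the pan-leukocyte marker, read -0.15 and -0.63, and Cd3e -1.08 and -0.81.

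Serpina1d, an alpha-1-antitrypsin gene expressed in liver (chromosome 12, 105002930 to 105002989), read 15.6 and 11.2 against 331 and 289, at least 3.79-fold and 3.53-fold. The second Serpina1d probe was not well above background in any channel (11.3 and 10.9 in the control clones, 11.7 and 12.1 with Nr5a2-EGFP). Of its paralogs in the same cluster, Serpina1f, 74997 bases away, read 1.33 and 1.48, and Serpina1a 0.13 and 0.52. Probes of such near-identical paralogs can share target RNA. Klk1, tissue kallikrein (chromosome 7, 51484170 to 51484325, a span longer than its 60-base probe), read 32.0 and 11.05 against 357 and 319, at least 3.38-fold and 3.86-fold. The neighbouring kallikreins Klk1b4 (1.53 and 0.72) and Klk1b3 (1.37 and 0.33) lay above 2-fold over EGFP only. Both families thus had nearby relatives with smaller positive ratios.

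Gpr146 was read through a probe for a non-coding transcript of that locus (chromosome 5, 139855229 to 139855288). Its signals were 22.4 and 10.9 against 305 and 264, at least 3.19-fold and 2.87-fold. Another probe with the gene's own name, 17061 bases away, read 0.68 and 1.43. Evi2, named Evi2b on the array, is a membrane protein gene inside an intron of Nf1 (chromosome 11, 79327004 to 79327063). It read 10.1 and 9.21 against 153 and 130, at least 2.09-fold and 1.85-fold, and the nearest Nf1 probe read -0.17 and 0.01.

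The last 3 of the 12 were also dim in both control clones. Asb18, a substrate adaptor of a ubiquitin ligase (chromosome 1, 91849253 to 91849312), read 8.56 and 8.93 against 141 and 144, at least 2.19-fold and 2.16-fold. Its other probes, with control signals of 141 to 244, read -0.38 and 0.00, and 0.13 and 0.38. Adcy10, the bicarbonate-sensitive adenylyl cyclase of sperm (chromosome 1, 167505771 to 167506673), read 9.20 and 8.68 against 97.3 and 88.5, at least 1.58-fold and 1.51-fold, while its brightest probe read -1.67 and -4.71. Ppp2r3a, a regulatory subunit of protein phosphatase 2A (chromosome 9, 101010177 to 101010236), read 10.0 and 9.06 against 101 and 129, at least 1.54-fold and 1.80-fold. A probe for an unnamed transcript that overlaps it in position had log2 ratios of 0.83 and 1.98, against 3.33 and 3.84 for the Ppp2r3a probe. The direction for Asb18 and Adcy10 therefore turned with the choice of probe.

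Promoter windows from 250 bases before to 50 bases after the start, from RefSeq on GRCm38.p6, were found for 115 of 160 member symbols and searched for 3 motifs. CAAGGNCA, the Nr5a2 half-site, searched on both strands, occurred in 4 of 115 genes (3.48%: Klk1, 1700011L22Rik, Mafg and Steap3), against 6.58% of detected genes and 7.64% of all genes with a window. ATGCNAAT, the octamer of Oct4, searched on both strands, occurred in 3 (2.61%: Hpx, Sh3bgrl and Zswim6), against 3.18% and 3.60%. TATAAA, the TATA box, on the given strand, occurred in 10 genes (8.70%), against 7.68% and 9.77%. A match is a stretch of letters and not a measured binding site.

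Windows of the 3 genes given in full that held a match are printed 5′ to 3′, with the match in capitals. In Klk1 the capitals are the Nr5a2 half-site on the opposite strand, 206 bases before the start. In Dkk1 they are a TATA box 54 bases before the start, and in Evi2 the same letters 192 bases before it. They lie at chr7:44225110-44225409 (+ strand), chr19:30549447-30549746 (- strand) and chr11:79530560-79530859 (- strand) on GRCm38.p6, a different build from the probe positions.
Klk1: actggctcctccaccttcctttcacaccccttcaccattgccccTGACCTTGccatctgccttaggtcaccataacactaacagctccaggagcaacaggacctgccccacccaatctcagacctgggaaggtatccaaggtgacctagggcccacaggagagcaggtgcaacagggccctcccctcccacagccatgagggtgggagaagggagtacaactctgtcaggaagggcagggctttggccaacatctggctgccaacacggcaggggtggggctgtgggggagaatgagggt
Dkk1: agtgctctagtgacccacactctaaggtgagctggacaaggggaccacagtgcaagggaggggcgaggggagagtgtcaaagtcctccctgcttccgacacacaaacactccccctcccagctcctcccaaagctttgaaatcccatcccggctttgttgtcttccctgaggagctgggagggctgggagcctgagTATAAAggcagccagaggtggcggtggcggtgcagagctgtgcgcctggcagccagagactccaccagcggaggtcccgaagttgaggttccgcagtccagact
Evi2: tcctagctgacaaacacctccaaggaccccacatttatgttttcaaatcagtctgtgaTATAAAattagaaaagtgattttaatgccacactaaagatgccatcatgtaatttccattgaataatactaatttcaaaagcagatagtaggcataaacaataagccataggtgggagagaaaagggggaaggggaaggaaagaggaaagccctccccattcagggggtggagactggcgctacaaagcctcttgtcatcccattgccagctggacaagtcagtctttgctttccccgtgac

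All 225 probes show the same division by brightness. Cy3 signal was well above background in both control clones for 116 probes (113 genes), in neither for 97 probes and in 1 of them for 12. Probes dark in both control clones are 43.1% of the members against 0.789% of all detected probes, a share that the rule raises, since a ratio is high where Cy3 is dim. The median Cy5 signal was 331 and 313 for the members against 1159 and 1041 for all detected probes, and no member was saturated in any channel. Median log2 ratios of the members were 2.36 over EGFP and 2.42 over Oct4-EGFP, against 0.06 and 0.07 over all detected probes. Among the 29295 probes well above background in all 4 channels, 116 (0.396%) met the rule, with median log2 ratios of 2.06 and 2.17.

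How many genes count as high depends on the treatment of this dim end. With normexp background correction and loess in place of the processed signals, 81 genes met the same rule, 80 of them among the 219. Of the 116 probes bright in both control clones, 73 still reached 3-fold over both, and 113 reached 2-fold. Of the 97 dim in both, 8 reached 3-fold: those of Serpina1d, Mug1, Adgre1, Gpr146, Klk1, Mindy4, D2Bwg1423e and LOC625953. Of the 16 genes given in full, 11 reached 3-fold over both and 5 did not (Tex13a, Asb18, Evi2, Adcy10 and Ppp2r3a). The correction adds an offset of 50 to every signal, which draws the ratios of dim spots towards 0, and the median log2 ratios of the 97 were 0.79 and 0.92 under it.

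**Figure D2:**
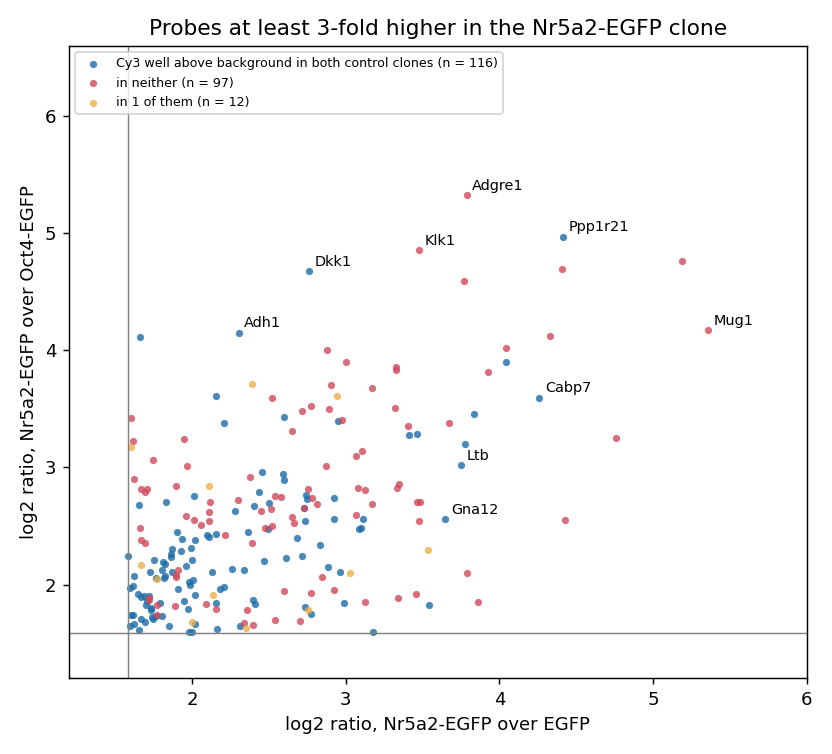
Log2 ratio over EGFP (x axis) against log2 ratio over Oct4-EGFP (y axis) of the 225 probes, coloured by Cy3 detection in the control clones, with grey lines at the 3-fold threshold. The 97 probes dim in both control clones extend over the whole range, while most of the 116 bright ones lie between the threshold and a log2 ratio of 3.

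The control clones were close to each other for these genes. Over the 116 probes bright in all channels, the median Oct4-EGFP minus EGFP difference in centred log2 Cy3 signal was -0.05, and 104 (89.7%) lay within 2-fold, against 78.2% of all such probes. The rule favours genes for which both controls are low, so part of this is fixed by the choice. The 7 probes at least 2-fold lower in the Oct4-EGFP clone were those of Dkk1 (-2.20), Adh1 (-1.92), Nmrk1 (-1.23), Arl4c (-1.15), LOC100045429 (-1.02) and both probes of Sez6 (-1.39 and -2.50). The 5 at least 2-fold higher were Kansl1 (1.80), Cacng7 (1.61), a Zfp219 probe (1.14), Gm5780 and Gm6996 (both 1.02). Over all probes bright in 4 channels, 10.7% were at least 2-fold higher and 11.1% lower in that comparison.

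The repeat reading of the Nr5a2-EGFP clone enters the rule, which asks for a high Cy5 signal on both arrays, so its closeness is partly fixed by the choice. The SD of the difference between the Cy5 readings of the arrays was 0.23 on the log2 scale for the members and 0.35 for all detected probes. Of the 225 member probes 2, those of Kcnmb4 (1.16) and Cdc20b (-1.17), differed by at least 2-fold between the readings, against 634 of the 30284 detected probes. The largest such difference over all detected probes was 5.78 on the log2 scale. These are readings of the same dye in the same clone, so they carry no check of the dye or of the clone.

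The lists of cell state markers held no member, but with 0.882% of all detected genes being members, lists this short cannot be told apart from that share. None of 18 detected pluripotency genes and none of 23 detected trophoblast genes was a member. Of the trophoblast genes 1 was at least 3-fold higher over EGFP and 13 over Oct4-EGFP. Of the pluripotency genes 2 were at least 3-fold lower over EGFP and 10 over Oct4-EGFP. The 2 were Esrrb (-2.29) and Fgf4 (-2.19), and for both the Cy5 readings of the same clone differed between the arrays. On the EGFP and Oct4 arrays these were 1828 and 3996 for Esrrb, and 2067 and 12175 for Fgf4. The second Fgf4 reading exceeds its EGFP signal of 9430, so these 2 calls rest on 1 reading. None was higher by 3-fold over either clone, although Nanog (1.54 and -0.74) and Tbx3 (1.30 and 0.61) read above 2-fold over EGFP. Also without a member were 11 detected primitive endoderm markers, 10 mesenchymal markers, 11 Wnt targets, 11 NF-kB targets, 18 actin regulators and 14 Golgi genes.

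Of 14 detected genes on a list of known Nr5a2 targets, which covers bile acid, steroid and cell cycle genes, 0 were members, which at a share of 0.882% over all detected genes says little for so few. Cyp11a1, the first enzyme of steroid synthesis, alone passed 3-fold over EGFP, but its EGFP signal was not well above background (Cy5 109), so no fold was measured. None reached 3-fold over Oct4-EGFP. Star, which carries cholesterol into mitochondria, read 1.34 and 0.95, Nr0b2, a repressor of bile acid synthesis, -0.68 and -0.66, and Ccnd1, cyclin D1, -2.47 and -1.30. The median log2 ratio of the list was 0.09 over EGFP and -0.31 over Oct4-EGFP.

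By role, the members with a gene symbol spread over many classes, which were assigned after the values were seen. The classes were not counted over all detected genes, so their sizes are a description only. Beside Dkk1 and Ltb, the secreted signals were Gdf1, Ifnb1, Ren1 and Ccl19. Ifnb1, interferon beta, read 16.4 and 34.7 in the control clones and 180 and 131 in the Nr5a2-EGFP clone and was dim in both controls. Gdf1, a growth factor of left-right patterning, read 630 and 706 against 2916 and 2785 (log2 ratios 2.21 and 1.98), and its other probe read -0.51 and 0.50. Ren1, the protease renin, had log2 ratios of 1.80 and 2.12, and Ccl19, a lymphoid chemokine, of 1.70 and 1.83. The other detected Ccl19 probes were brighter and read 0.84 and 0.77, and 0.72 and 0.27. The plasma, lung and gland proteins were Serpina1d, Mug1, Klk1, Hpx (hemopexin), Sftpd (surfactant protein D), Pla2g3, Mucl1, Psapl1 and Glipr1l1. Of these 9, 7 were dim in both control clones and have bounds only. The log2 ratios of the others were 1.93 and 2.29 for Sftpd and 2.01 and 2.04 for Glipr1l1. Another Sftpd probe read 1.35 and 0.70.

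Matrix and surface proteins made up 15 genes. Nid1, the basement membrane protein nidogen, read 343 and 417 against 4704 and 3837, with log2 ratios of 3.78 and 3.20. Its 2 other detected probes read 0.18 and -0.25, and 0.57 and 0.83. A predicted gene on the same chromosome, LOC100039744, was read by a probe that shares 45 bases with the high Nid1 probe, and its log2 ratios were 4.04 and 3.90. These 2 members are therefore not independent readings. Sez6, a neuronal surface protein, was high with both of its probes (2.16 and 3.61, and 1.66 and 4.11). Steap3, an iron reductase of endosomes, was among the brightest, at 9004 and 7111 against 34704 and 25842, with log2 ratios of 1.95 and 1.86. The rest of the class was Col4a6, Flrt2, Adam3, Chodl, Lrfn1, Lrit2, Btnl9, Cd300lb, Evi2, Plvap, Tapbpl and Pdzk1ip1.

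By symbol, 6 loci of G protein-coupled receptors other than odour receptors were members. These were Adgre1, Adgrv1, Gper1 (the membrane oestrogen receptor), Gpr146, Gpr162 and Ptafr (the receptor of platelet-activating factor). Gpr146 counts only through the non-coding transcript of its locus, and the probe with the gene's own name was not a member (0.68 and 1.43). Only Gpr162 was well above background in both control clones, at 995 and 912 against 4030 and 3434 (log2 ratios 2.02 and 1.91). Odour and pheromone receptors gave 11 members. They were Olfr199, Olfr358, Olfr543, Olfr813, Olfr1040, Olfr1083, Olfr1197, Olfr1307, Vmn1r63, Vmn1r212 and Vmn2r29. These are 8 of 506 detected olfactory receptor genes (1.58%) and 3 of 107 detected vomeronasal genes (2.80%), against 0.882% of all detected genes, and 6 of the 11 were dim in both control clones. The brightest was Olfr358, at 592 and 530 against 1881 and 1725.

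Channels and transporters were Kcng4, Kcnmb4, Cacng7, Gabrd, Trpc4, Slc10a5, Slco2b1, Mfsd12 and the nuclear export receptor Xpo7. Slc10a5, of the bile acid transporter family, read 305 and 207 against 1306 and 1113 (log2 ratios 2.10 and 2.42), and no other Slc10 gene reached 2-fold over both clones. Adh1, the main alcohol and retinol dehydrogenase of liver, read 593 and 140 against 2929 and 2495 (log2 ratios 2.31 and 4.15). It was the only member among the alcohol dehydrogenases, and Adh4 read -0.73 and -0.15. Cyp26a1, which degrades retinoic acid, was dim in both control clones (28.6 and 44.0 against 166 and 143). The other metabolic enzymes were Nnmt, Idi2, Nt5dc2, Nmrk1, Awat2, Ganc, Pyroxd2, B4galnt2, Ndst1 and Cryzl2.

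The class of intracellular signalling held 19 genes. Ppp2r5a, a targeting subunit of protein phosphatase 2A, was the brightest member, at 11415 and 9997 in the control clones and 39526 and 35915 in the Nr5a2-EGFP clone (log2 ratios 1.79 and 1.84). A nameless transcript probe on chromosome 4 shares a run of 21 bases with it (cagttgtatggaaaactgttt) and read 1.72 and 1.90. Arl4c, a small GTPase of membrane traffic, read 9973 and 4032 against 31410 and 25776, log2 ratios of 1.66 and 2.68. Dusp10, a phosphatase of stress kinases, had log2 ratios of 1.75 and 2.21, and Irs1, the insulin receptor substrate, of 1.85 and 1.65. The class also held Ppp1r21, Cabp7, Adcy10, Ppp2r3a, Gna12, Kndc1, Gpn2, Wdfy4, Cask, Phactr2, Ccdc88a, Rasl10a, Arhgap6, Pde4b and Stk35.

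Transcription and chromatin genes numbered 12, of which 7 probes were bright and 7 dim in the control clones. Mafg, a small Maf partner of stress response factors, read 954 and 614 against 3868 and 3195 (log2 ratios 2.02 and 2.38). Its other detected probes read -0.07 and 0.91, and 0.08 and 0.67. Zfp521 read 224 and 169 against 1265 and 1098, and Lhx3, a pituitary and motor neuron homeobox factor, 118 and 78.1 against 645 and 608. Zfp219 met the rule with both probes: 1 was bright in both control clones (2.99 and 1.84), and the other was dim in both, at least 2.57-fold and 2.21-fold. Foxo4 was high with both of its probes too, but those overlap by 52 bases and were dim in both control clones. Foxo1 read below 0 with both probes, and Foxo3 read -0.17 and -0.13. The class was completed by Sox18, Elk4, Zfp395, Nr1h4 (the bile acid receptor FXR, dim in both controls), Jade3, Kansl1 and Rprd2.

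Of the 14 probes of protein turnover genes, 10 stayed past 3-fold under normexp and loess. Over all 225 member probes 82 did, and 73 of the 116 that were bright in both control clones. In this class 10 of the 14 probes were bright in both, so the count cannot be told apart from an effect of brightness. Wdr26, a subunit of a ubiquitin ligase complex, was high with both probes, at 7899 and 5282 against 28887 and 22728 for the brighter (log2 ratios 1.87 and 2.11). Calcoco2, an autophagy receptor, was likewise high with both, at 12010 and 7152 against 36881 and 28430 for the brighter (1.62 and 1.99). The other genes were Rnf26, Rnf103, Fbxo28, Fbxo42, Cul9, Spopl, Asb18, Mindy4, Trim14 and Serpinb9d. All 7 genes of cytoskeleton and vesicle traffic, Gas2l1, Kif12, Kifc3, Myo9b, Actl7a, Sytl1 and Rftn2, were bright in both control clones. So were 116 of all 225 member probes. Among the 7 genes Gas2l1, a linker of actin and microtubules, read 503 and 466 against 5541 and 4556 (3.46 and 3.29). RNA-binding and RNA-modifying genes included Serbp1 and Trmt1.

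Further genes with a symbol were Pgbd5, Tex13a, Gsdmc3, Sly, Xlr5b, Krtap1-3, Sprr2a2, Cdc20b, Tmem201, Tmem106b, Nemp2, Sh3bgrl, Trav14n-1, Fam184b, Uhrf1bp1, Zswim6, AY358078 and D11Bhm181e. A predicted gene on chromosome 9, LOC625953, was dim in both control clones (25.1 and 28.7 against 913 and 780), at least 8.06-fold and 8.02-fold. Predicted transcripts made up 18.7% of the member probes and 12.9% of the detected probes, curated messenger RNAs 61.8% and 68.7%, and cDNA or EST records 8% and 5.51%.

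Of the 38 genes of predicted transcripts without an official symbol, 19 were dim in both control clones and 13 bright in both. Those with a gene name were LOC625953, D2Bwg1423e, LOC100039744, LOC100047141, LOC631980, LOC100041580, LOC676620, LOC100045429, LOC100047498, A930035D04Rik, 4933413J09Rik, 1700056E22Rik, 4930519H02Rik, 1700016G22Rik, Gm2547, Gm2723, Gm3450, Gm3716, Gm3792, Gm3853, Gm4262, Gm4507, Gm4591, Gm4980, Gm5116, Gm5767, Gm5780, Gm6996, Gm7111, Gm8040, Gm8571, Gm8700, Gm9565, Gm9636, Gm9732, Gm11677 and Gm11728. The brightest of them, Gm5780, read 943 and 1708 against 6459 and 5738. From cDNA, EST, curated or Ensembl records came D630004K10Rik, C130046B21Rik, C630016N16Rik, A230061C15Rik, A030001D16Rik, 4930598N05Rik, 4930539N22Rik, 4933404G15Rik, 4933417D19Rik, 4930516B21Rik, 4930480G23Rik, 6330545A04Rik, 1700011L22Rik, D130009I18Rik, AI853106, AI956758, AI428898, AU021884, Gm7337 and Gm20736. The remaining members carry only a transcript or probe number.

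At the threshold, the 5 members with the lowest smaller ratio were AI428898 and Cacng7 (both 1.59), Stk35, A030001D16Rik and Gm2723 (each 1.60). The 5 probes just outside it were those of Igfbp5, Rbm24, an unnamed Ensembl transcript, Myo1a and Ebf4 (each 1.58). Igfbp5, a binding protein of insulin-like growth factors, read 473 and 140 against 1419 and 1196.

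Genes measured by several probes show how far the result depends on the probe. Counted by the gene names of the array, 141 of the 219 genes had 1 probe and 60 had another detected probe. The remaining 18 had other probes of which none was detected, such as Serpina1d. Gpr146, which has another name on the array, counts among the 141, although a further detected probe carries its current name. In 6 genes 2 probes met the rule: Wdr26, Foxo4, Sez6, Zfp219, Idi2 and Calcoco2. For Idi2 both were dim in both control clones, and a brighter probe of the gene read -1.60 and -0.51. The 55 genes with a detected probe that did not meet the rule gave 75 such probes. Their median log2 ratios were 0.18 over EGFP and 0.27 over Oct4-EGFP, and 0 of 75 reached 2-fold over both clones. By construction these 75 are below 3-fold on at least 1 array, so the count leaves out the agreeing probes. In other genes with several detected probes, 1.53% of 9919 probes reached 2-fold over both.

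In 40 of the 55 genes a probe that did not meet the rule was brighter than the one that did. Lrfn1, a synaptic adhesion protein, read 1006 and 617 against 7775 and 6494 with one probe and 16411 and 16631 against 19599 and 17516 with another. For Myo9b, an unconventional myosin, the first probe read 1.91 and 1.96 and the second, at signals between 32862 and 43586, -0.04 and -0.39. Rnf26 read 2.93 and 2.74 with its member probe and -0.69 and -0.28 with its brightest. Gas2l1 kept a ratio of 1.70 over Oct4-EGFP with its brighter probe but read -0.32 over EGFP. Steap3 is the reverse case: its member probe was the brighter in Cy5, and the other read 0.83 and 0.17. Whether the probes of a gene read different transcripts was not tested.

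**Figure D3:**
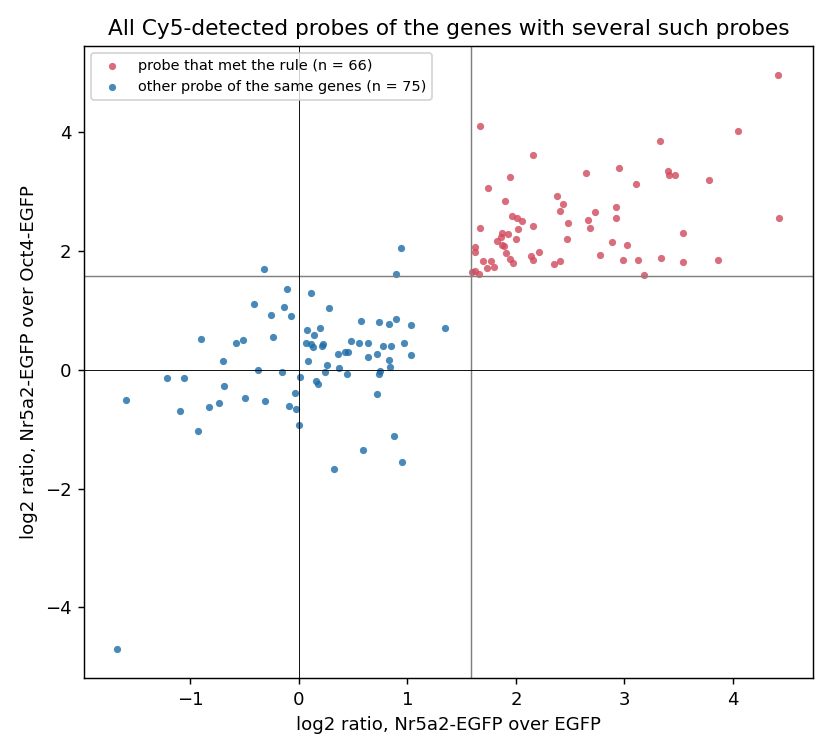
Log2 ratio over EGFP (x axis) against log2 ratio over Oct4-EGFP (y axis) for all detected probes of the 60 genes with more than 1 such probe; grey lines mark 3-fold. The 66 probes that met the rule sit in the upper right by construction, and the 75 others gather around 0, with medians of 0.18 and 0.27.

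In the genome, the members lay on every autosome and on X and Y. Chromosomes 4 and 11 held most, 20 genes each of 1558 and 1893 detected genes (1.28% and 1.06%, against 0.882% over all detected genes). Chromosome 14 held the highest share of the autosomes and X, 15 of 987 (1.52%), and chromosome 15 the lowest, 1 of 944 (0.106%), the gene Gsdmc3. Sequences assigned to chromosome Y gave 4 of 71 detected genes, Sly, LOC100041580, Gm20736 and an unnamed probe. The probes of the last 2 share a run of 21 bases (ccatcatggagaataatctga).

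On chromosome 1, 13 of 983 detected genes beyond 70 Mb (1.32%) were members, against 3 of 393 up to that point and 0.882% of all detected genes. The 70 Mb point was set with earlier results of these data known, so these counts and the medians that follow are a description only. The median log2 ratio of all probes beyond 70 Mb was 0.35 over EGFP and 0.27 over Oct4-EGFP, so that stretch as a whole read higher in the Nr5a2-EGFP clone. Wdr26, Fbxo28, Dusp10, Ppp2r5a, Steap3, Arl4c, Irs1, Ren1, Elk4, Asb18, Adcy10 and Cryzl2 lie there. How much of their ratios this shift makes up was not tested.

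**Figure D4:**
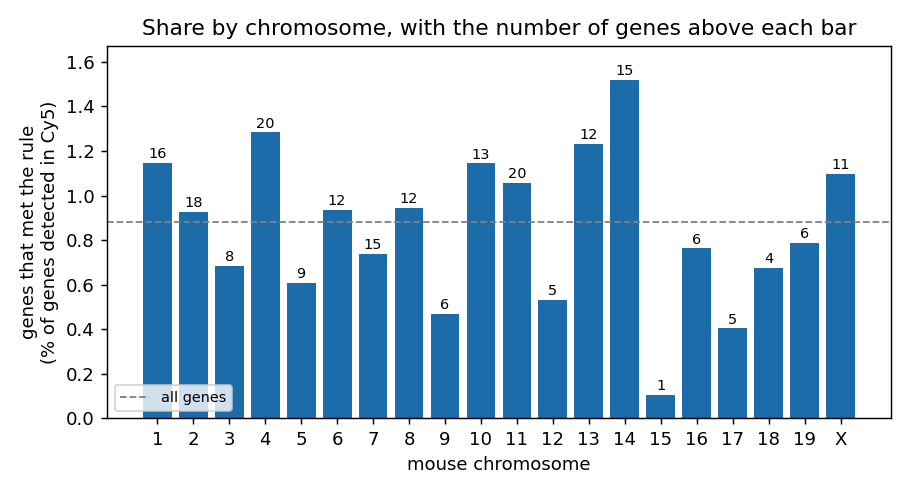
Share of detected genes that met the rule (bars, %) on each autosome and X, with the number of member genes above the bar and the share over all detected genes as a dashed line. Chromosome 14 is highest at 1.52% and chromosome 15 lowest at 0.106%, with the dashed line at 0.882%.

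Genes next to the members mostly did not share their ratios. The 1054 probes of non-members within 100 kb had median log2 ratios of 0.11 and 0.08, against 0.06 and 0.06 for all detected non-members. Of these neighbours 19 (1.80%) reached 2-fold over both clones, against 1.59% of all. Around Ppp1r21, Ston1 read 0.53 and 0.49 and Foxn2 0.35 and -0.32. Prkg1, next to Dkk1, read 0.23 and 1.19, and Gbx2, next to Asb18, -1.07 and -1.16. All 24 neighbouring probes of Ltb, which lies in the gene-dense major histocompatibility region, read between -0.74 and 0.54 over EGFP and between -1.93 and 0.70 over Oct4-EGFP. Beside Gna12, Amz1 read -0.23 and -0.51 and Iqce 0.57 and -0.77. The neighbours of Cabp7 (Ascc2, Zmat5, Uqcr10 and Nf2) ran from -0.31 to 0.65 over EGFP, and those of Kcng4 (Adad2, Wfdc1, Hsdl1, Taf1c, Dnaaf1, Mbtps1 and AU018794) from -1.45 to 0.38. Next to Adcy10, Mpzl1 read 1.24 and 0.74, Rcsd1 -0.62 and 0.41 and Mpc2 0.29 and 0.01, and the 4 probes near Ppp2r3a ran from -0.31 to 0.83 over EGFP and from 0.23 to 1.98 over Oct4-EGFP. The highest of those, for an unnamed transcript, lies 22 bases from the Ppp2r3a probe (0.83 and 1.98).

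A few members did lie together. Of the 219 genes, 14 (6.39%) had another member within 100 kb, against 850 of 24511 other detected genes (3.47%) that had a member so near. The pairs were Gas2l1 and Rasl10a, 2432 bases apart on chromosome 11, Gpr146 and Gper1, 48119 bases apart on chromosome 5, Fbxo42 and 6330545A04Rik on chromosome 4, Dusp10 and 1700056E22Rik on chromosome 1, Slco2b1 and Gm4980 on chromosome 7, and Hpx and Mfsd12, each with an unnamed transcript. Rasl10a, a small Ras-like GTPase, read 2194 and 1633 against 7147 and 5932 (1.70 and 1.86), beside the larger ratio of Gas2l1.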

How the data were processed

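The deposited spot intensity values are scanner output of Agilent Feature Extraction 10.7.3.1 per the file headers (9.3.2.1 in the submitters' processing notes), design 026655. Per the file headers, processed signals were background-subtracted, detrended and dye-normalized within each array. Spots too dim to measure carry a substituted value. The deposited log10 ratio of Cy5 over Cy3 was used as a check. The authors' deposited value table of log2 ratios followed it at r = 0.997 on both arrays; its centring is unknown. RNA (10 µg per channel) was primed with oligo-dT, per the labels.

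Control spots were left out and spots of a probe averaged. The 399 probes printed 10 times had a median SD of 0.079 and 0.078 in the log2 ratio, which covers the slide only. Normexp (offset 50), loess and Aquantile were run in limma 3.58.1 (R 4.3.3) for an alternative and for the bounds. Only the 3-fold rule was tried on simulated ratios. The normalization steps and the bounds were not tested on simulated data. Cy3 levels were centred on the median of probes bright in all channels. Gene names of the files were brought up to date through RefSeq accessions (66.1% of probes matched). Exon annotation on mm9 was not used here.

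Members and gene lists were chosen with earlier results of these data known, and role classes and family lists after the values were seen. The rule for named genes was to give in full the 12 official symbols with the highest smaller ratio and every member on a list, to name all members, the 5 on each side of the threshold and neighbours within 100 kb. Departing from it, members and neighbours without a gene name are not listed, 1 named member is not reported here, and of the neighbours only examples are named.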

Additional observations from a re-analysis of the deposited data

How the results depend on the processing

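The rule gave 219 genes, 7 of them on the gene lists, 20 on the fullest chromosome and 6 with 2 probes past the threshold. With normexp and loess these were 81 genes, 9 on the fullest chromosome and 2 with 2 probes; the offset draws dim ratios towards 0. At 2-fold they were 688, 15 on the lists, 78 and 15, and at 4-fold 116, 13 and 0. Restricted to probes well above background in all 4 channels, the genes fell to 113, and 3 had 2 probes. By array gene name, taking only the brightest probe of a gene gave 172 genes, the mean over its probes 168 and requiring every detected probe 164. The first of these turned Asb18 to -0.38 and Adcy10 to -4.71, and the mean turned Adcy10 to -0.59, since other probes enter. Centring on the median gave 199 genes, no background filter 274, the other array's Cy5 reading 209, the mean of both readings 216 and the authors' deposited ratios 224. Leaving out saturated or outlier spots, or naming genes by RefSeq symbol, gave 219. The RefSeq naming and the requirement on every probe were chosen after seeing the data. Signal over background limits the 97 probes dim in both control clones to bounds. No paired analysis was possible because each pair of clones was hybridised once.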
